A study of Physcomitrium patens with 6 samples.

Results

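The budding protonema of the moss Physcomitrella patens at day 24 after protoplast isolation was compared directly with the young regenerant of day 3, across genes and across Gene Ontology (GO) annotations. Each side was 1 library of digital gene expression tags, made from 3 biological replicates that had been pooled before the library was built, so that no replicate library stands beside either. The submitters' labels give only a stage for each sample and call the tissue of both leafy shoot, while the study describes a filament of a few chloronemal cells at day 3 and protonemal filaments that carry many buds at day 24. No marker gene of chloronema, caulonema or bud was fixed, so the tissue was not checked by markers. Both samples were grown from protoplasts of protonemata on the same medium without a further treatment, and the series holds 6 libraries in all. Members were the gene models with over 100 tags in at least 1 of the 2 libraries, which applied to 8058 of 18029 gene models listed in either. In tissue of several cell types, fewer cells of a type and less RNA per cell cannot be told apart.

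A moss protoplast first rebuilds its wall and then grows by tip growth into filaments of chloroplast-rich chloronema and, later, faster growing caulonema. On some filament cells a side initial divides in 3 dimensions in place of forming a further filament, and this bud becomes the leafy gametophore. Cytokinin promotes bud formation in mosses, and auxin and strigolactone act on filament growth and branching.

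In the assay, cDNA on oligo(dT) beads was digested at CATG and a tag of 21 nt was read from such a site, so that a transcript is known only by a short stretch near its 3' end. Many gene models at the extremes of this comparison had no annotated product, so their tags are shown. Those of the 2 most abundant gene models of day 3 and the 3 of day 24 come first, 5' to 3', with the CATG site in capitals.
Pp1s66_172V6.1: CATGtaataaaagtgaatttc
Pp1s181_57V6.3: CATGggagtacattgactgga
Pp1s350_5V6.2: CATGgatgcgccgaacttcgg
Pp1s109_232V6.2: CATGgattggattagaaaggc
Pp1s8_156V6.1: CATGggtgtattgacatatct

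The tags of the 3 most extreme gene models in each direction follow, first those of day 24 and then those of day 3. Each of these 6 was listed in 1 of the 2 libraries only. Pp1s307_26V6.1, annotated to transport, had 2951 tags at day 24 and Pp1s154_58V6.2, without a GO term, had 1493. At day 3, Pp1s34_348V6.2, without a named product, had 1407 tags and Pp1s7_391V6.1, annotated to cation binding, had 808. The other 2 are described with their families.
Pp1s136_71V6.1: CATGgctaagtgactagtcat
Pp1s307_26V6.1: CATGggttttaatctagtaag
Pp1s154_58V6.2: CATGctttatcatagactagc
Pp1s54_173V6.1: CATGaggacaccgttccatta
Pp1s34_348V6.2: CATGaaaagcaaagatgcgaa
Pp1s7_391V6.1: CATGtataatatcaatgtttg

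The library of day 3 held 6188001 gene tags over 16605 gene models and that of day 24 held 5857712 over 16238. Levels are CPM, tags per 1000000 gene tags at library sizes scaled by the trimmed mean of M-values (TMM), with factors of 0.923 and 0.996, and folds are ratios of these levels. A gene was called when its levels differed over 2-fold and an exact two-sided binomial test of its tags gave p under 0.01 and a Benjamini-Hochberg adjusted p under 0.001. That test compares 2 libraries, not 2 stages, and the 95% intervals given with folds cover counting error only. A call was made for 49.8% of the 8058 genes: 1915 (23.8%) were higher at day 24 and 2095 (26.0%) were lower. All 4010 genes past 2-fold passed the test, so the fold alone decided the calls. The median log2 ratio was 0.00084, so at this scaling the median gene did not shift.

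Large differences were common in both directions. The fold was over 10 in 197 genes higher and 267 genes lower at day 24, and over 100 in 34 and 28 genes. Tags were listed at day 24 only for 43 of the tested genes and at day 3 only for 33. The share called depended on the filter: of the 5148 genes with over 100 tags in both libraries 34.6% were called, against 77.8% of the 1471 with over 100 tags at day 3 only and 75.3% of the 1439 with over 100 at day 24 only, which passed the filter only on the side where they were high. Just inside the filter stood 50 genes whose higher count was 101 tags, with 14 to 97 tags in the other library, and just outside it 34 genes whose higher count was 100, with 0 to 96. With a coefficient of variation of 0.2 between libraries assumed in place of counting error, 957 genes (11.9%) were called higher and 1183 (14.7%) lower, and the smallest fold called was 2.90. With 0.4 these numbers were 120 (1.49%) and 166 (2.06%).

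**Figure D1:**
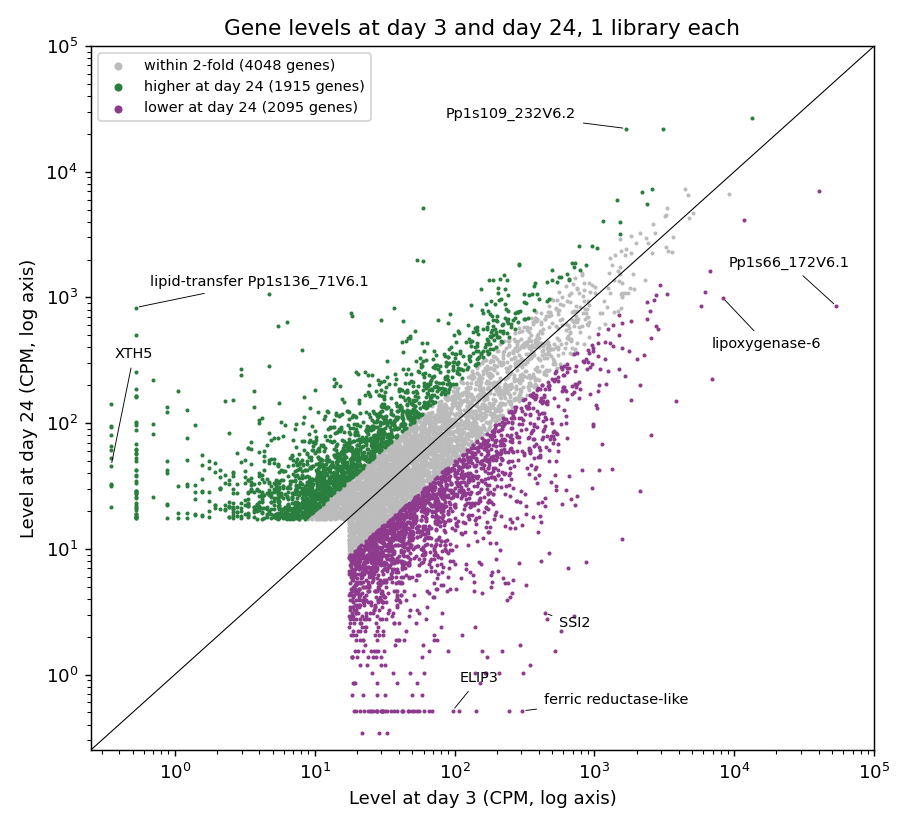
Level of each of 8058 tested genes at day 3 (horizontal, CPM, log axis) and at day 24 (vertical, CPM, log axis), with genes listed in 1 library only placed at 3 tags in the other. The 1915 genes called higher at day 24 lie above the diagonal and the 2095 called lower lie below it, with 4048 within 2-fold between them.

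The most abundant transcripts changed in part between the stages. The gene model Pp1s66_172V6.1, which had neither a named product nor a GO term, held 306706 tags at day 3 and 4956 at day 24. It took 4.96% of all gene tags at day 3 and 0.0846% at day 24, a 63.2-fold lower level (interval 61.5 to 65.0). Pp1s181_57V6.3, annotated only to a cytoplasmic part and an intracellular organelle, fell 5.70-fold from 229610 to 41127 tags. At day 24 the first place was held by Pp1s350_5V6.2, whose tags went from 76007 to 156426, a 2.01-fold higher level (2.00 to 2.03). With DESeq2 size factors its log2 ratio was 0.95 and with TPM 0.94, and the call was lost. Pp1s109_232V6.2 rose 13.0-fold from 9665 to 128491 tags, and Pp1s8_156V6.1 rose 7.09-fold from 17533 to 126984. None of these 3 had a GO term. Among the 10 most abundant gene models of day 3, those with an annotation and a call were lower at day 24. They included lipoxygenase-6 (Pp1s171_146V6.1), a glutathione S-transferase (Pp1s126_26V6.1) with 32733 and 4979 tags, and Pp1s75_107V6.1, annotated to peroxidase activity, with 39368 and 1319 tags. Pp1s144_29V6.1, matched to the methionine sulfoxide reductase MSRB2, which repairs oxidised methionine, was abundant in both with 26449 and 38309 tags and was within 2-fold. The 10 most abundant gene models together took 14.9% of the tags of day 3 and 11.8% of those of day 24.

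**Figure D2:**
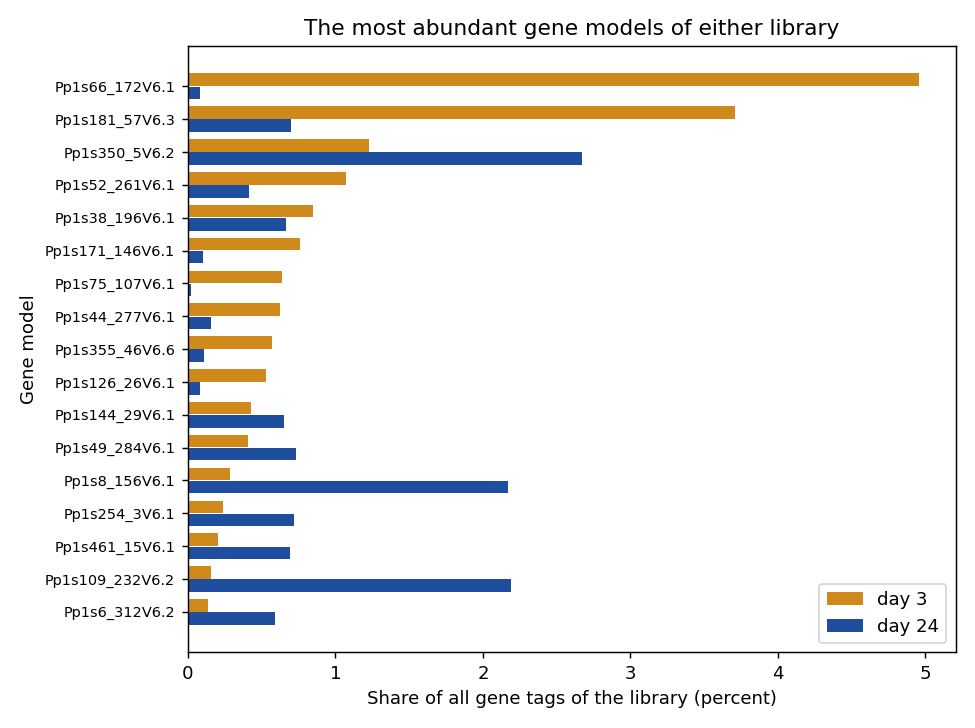
Share of all gene tags (horizontal, percent) taken by the gene models that were among the 10 most abundant at day 3 or at day 24, with 1 bar for each library. Pp1s66_172V6.1 took 4.96% at day 3 and 0.0846% at day 24, and Pp1s109_232V6.2 took 0.156% and 2.19%.

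Across 29 lists of GO terms, the lists of photosystems and protein kinases had more members called higher than lower at day 24, and those of protein folding, central carbon metabolism, antioxidants, lipids, translation factors and osmotic stress had more called lower. Of 265 tested members of the photosystem and thylakoid list, 87 (32.8%) were higher and 40 (15.1%) lower at day 24, with a median log2 ratio of 0.47. Over all tested genes, 23.8% were higher, 26.0% were lower and the median was 0.00084. The protein kinase list had 79 higher and 53 lower of 241 (median 0.30). RNA splicing and processing had 13 higher and 9 lower of 39 (median 0.31), and carbon fixation and photorespiration 11 and 7 of 38 (median 0.39).

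Of 23 members of protein folding and heat response, 14 were lower and 2 higher, with a median of -1.09. The list of glycolysis, citrate cycle and pentose phosphate genes had 44 lower and 12 higher of 106 (median -0.82), antioxidant and peroxide 34 and 18 of 73 (-0.66), and lipid and fatty acid metabolism 65 and 29 of 169 (-0.65). Translation factors and tRNA charging had 44 lower and 10 higher of 131 (-0.43), starch and sucrose 30 and 19 of 85 (-0.39), amino acid synthesis 38 and 20 of 126 (-0.37), and osmotic, water and cold stress 53 and 24 of 148 (-0.31). Chromatin and histone had 18 lower and 9 higher of 47 with a median of -0.49, which turned to 0.11 when genes with over 10 tags in at least 1 library were admitted.

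The other lists described here had calls in both directions. The ribosome list had 39 higher and 42 lower of 203 (median 0.01) and hormone response 30 and 33 of 138 (0.03). Light response had 29 and 30 of 112 (-0.04), and chlorophyll and porphyrin synthesis had 8 and 8 of 52 (-0.02). The transcription list had 45 higher and 32 lower of 156 (0.09). Membrane transporters had 53 higher (21.6%) and 68 lower (27.8%) of 245 (-0.16). The cell wall list had 55 higher and 66 lower of 218 (-0.15), and the list of organ, meristem and leaf development 19 and 20 of 75 (-0.28). No chance test was run over lists, which share members, and nothing is called particular to a list from these counts. The 2068 tested genes without a GO term had 589 higher and 531 lower (median 0.12).

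**Figure D3:**
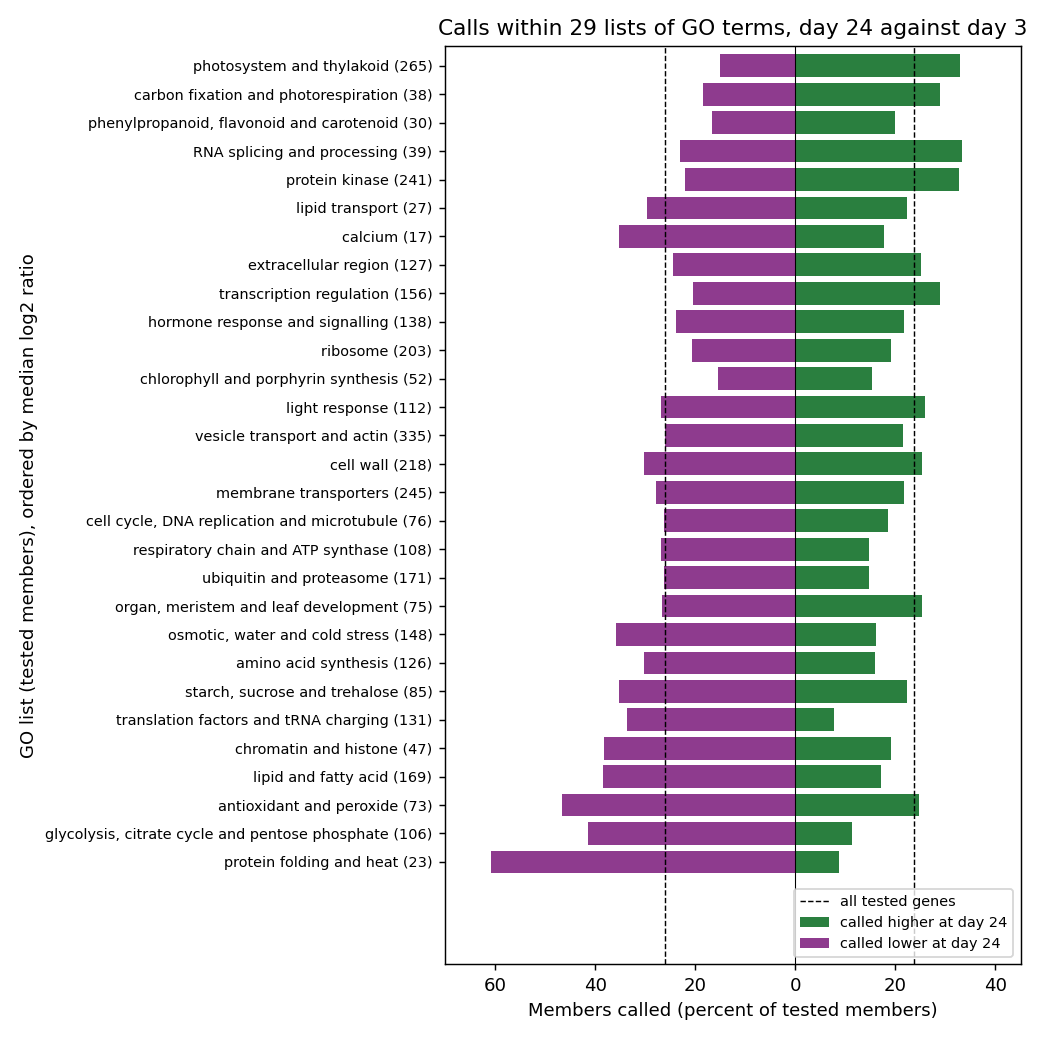
Percent of the tested members of each of 29 GO lists that were called higher (right) or lower (left) at day 24, with the lists ordered by median log2 ratio and the shares of all tested genes, 23.8% and 26.0%, as dashed lines. Photosystem and thylakoid stands at the top with 32.8% higher, and protein folding and heat at the bottom with 60.9% lower.

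Among single GO terms with at least 20 tested members, 62 of 158 had a median above 0 and 96 below it, and this split moved to 76 and 82 under total gene tags and to 49 and 109 with TPM. The split was 11 and 21 in the component column, 29 and 29 in the function column, and 22 and 46 in the process column. The 5 highest medians were those of photosystem I (1.1, with 12 members higher and 0 lower of 23), photosystem II (1.06, 13 and 2 of 25), phosphatase activity (0.96, 13 and 3 of 26), carboxylesterase activity (0.92, 21 and 10 of 48) and tetrapyrrole binding (0.82, 11 and 0 of 28). Cellular metabolic process (0.70, 16 and 4 of 43) and protein histidine kinase activity (0.66, 8 and 5 of 21) came next. The 6 lowest were response to stimulus (-1.40, 2 higher and 22 lower of 38), fatty acid metabolic process (-1.38, 4 and 23 of 44), antioxidant activity (-0.94, 11 and 18 of 36), response to light intensity (-0.94, 1 and 12 of 27), oxidoreductase activity on the CH-CH group (-0.92, 9 and 25 of 51) and glucose catabolic process (-0.91, 8 and 38 of 87). The photosystem terms and the response to light intensity were at opposite ends, while the photosynthetic electron transport chain was near the background with 5 higher and 6 lower of 20 (median 0.02).

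**Figure D4:**
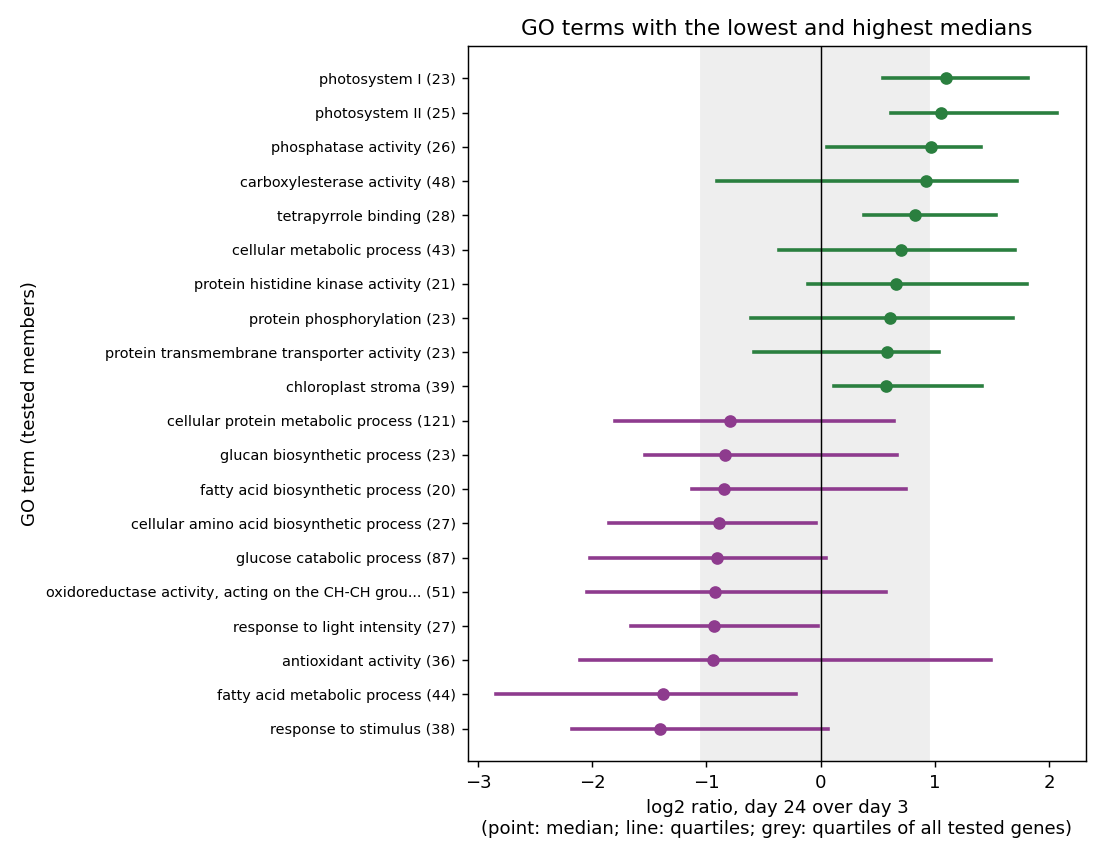
Median (point) and quartiles (line) of the log2 ratio of day 24 over day 3 for the 10 GO terms with the lowest and the 10 with the highest median among 158 terms, with the quartiles of all tested genes in grey. Medians ran from -1.40 for response to stimulus to 1.1 for photosystem I.

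The gene families below were put together from annotated product names after the values had been seen, so that their counts are descriptions, to be read beside the 23.8% higher and 26.0% lower of all tested genes. A name was at hand for 1105 of the 8058 tested genes, of which 269 were called higher and 344 lower. Names after Arabidopsis genes give the closest homologue in the study's list of differentially expressed genes, drawn from these same samples. A family named from that list holds mainly genes already chosen for a change, so the shares of all tested genes are no fair background for it. Listed members of a family are gene models with such a name, not every copy in the genome.

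Transcripts named for proteins of desiccation and seed maturation were far higher at day 3 than at day 24. Late embryogenesis abundant (LEA) proteins protect dehydrating cells, and all 5 listed LEA and seed maturation genes were tested and lower at day 24. Each had under 100 tags at day 24 and so passed the filter only at day 3. Of all genes that passed in this way, 77.8% were called lower and 0 higher, so the direction was largely set by the filter. Pp1s156_7V6.2 had 1419 tags at day 3 and 24 at day 24, a 60.4-fold lower level (40.4 to 94.6). Pp1s118_232V6.2 had 1356 and 23 tags, Pp1s114_139V6.2 had 1315 and 31, and Pp1s161_8V6.1 had 1039 and 36. The seed maturation protein Pp1s168_73V6.1 had 377 tags at day 3 and none at day 24. With a floor of 3 tags in place of 0, it was 128-fold lower (lower 95% limit 104). Summed over the family, the level was 965 CPM at day 3 and 19.5 at day 24. The level of Pp1s156_7V6.2 was 0 at day 14 and 249 CPM at day 30, next to 249 at day 3, so day 24 fell between 2 libraries in which it differed widely. PER1 (Pp1s12_126V6.1), a 1-cysteine peroxiredoxin known from dormant seeds, had 4976 and 46 tags, a 111-fold lower level (82.7 to 151).

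Early light-induced proteins (ELIPs) bind pigments in stressed chloroplasts, and 3 of 8 listed were tested. ELIP3 (Pp1s371_45V6.1) had 552 tags at day 3 and none at day 24, 188-fold lower against the floor of 3 tags. ELIP12 (Pp1s196_69V6.1) had 891 and 9. ELIP14 (Pp1s77_163V6.2) went the other way, from 142 to 432 tags, 2.98-fold higher (2.46 to 3.63). The family therefore did not move as 1 group.

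Most genes named as chaperones were lower at day 24. The protein folding and heat list had 2 of 23 members higher, among them Pp1s170_46V6.1 with 176 and 522 tags, 2.90-fold higher (2.44 to 3.46). The small heat shock protein Pp1s129_85V6.1 had 870 and 5 tags, 178-fold lower (75.9 to 549), HSP17.6A (Pp1s11_289V6.1) had 774 and 36, and Pp1s107_27V6.1 had 1659 and 410. Of 7 chaperonin and HSP70 genes 6 were lower and 1, a CPN20 copy with 163 and 103 tags, was within 2-fold. The chaperonins fold proteins of the cytosol and the plastid. The plastid subunit CPN60B (Pp1s15_485V6.2) fell 3.36-fold (3.00 to 3.77) from 1285 to 391 tags, and its listed tag differed between the libraries. A TCP-1/cpn60 gene (Pp1s162_9V6.1) fell 7.82-fold from 2724 to 356.

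Genes named for iron uptake were lower. Ferric reductases reduce iron at the cell surface and FTR1-type permeases carry it across the membrane, and the 4 tested of 6 listed genes were all lower. The ferric reductase-like gene Pp1s54_173V6.1 had 1739 tags at day 3 and none at day 24. Against the floor of 3 tags it was 592-fold lower, which was the most extreme loss of the comparison. A second, Pp1s39_125V6.1, had 180 and 9 tags. The FTR1-like permease Pp1s99_150V6.1 had 2705 and 54 tags, 51.2-fold lower (39.1 to 68.3), and Pp1s465_25V6.1 had 6105 and 1175. The library of captured chloronema cells, which was made separately, listed Pp1s54_173V6.1 and Pp1s99_150V6.1 at 1340 and 2335 CPM, next to 305 and 474 CPM at day 3.

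**Figure D5:**
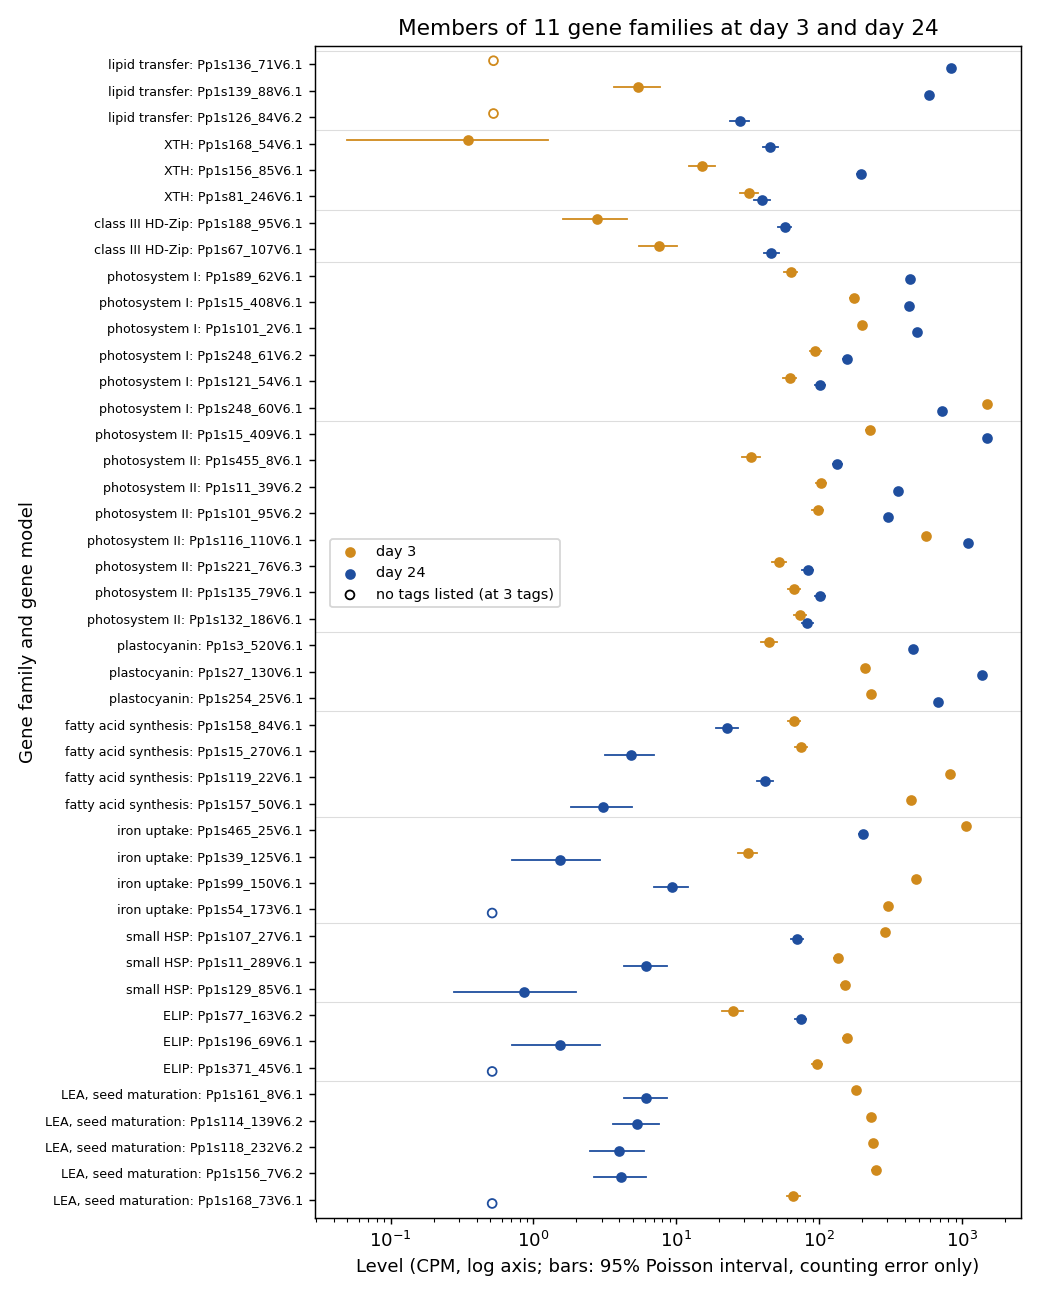
Level of each tested member of 11 named families (horizontal, CPM, log axis) at day 3 and day 24, with 95% Poisson intervals of counting error and open circles at 3 tags where a library listed none. LEA, small HSP, iron uptake and fatty acid synthesis genes lie higher at day 3, and plastocyanin, class III HD-Zip and lipid-transfer genes lie higher at day 24.

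All 4 genes named for fatty acid synthesis were lower at day 24. SSI2 (Pp1s157_50V6.1), a stearoyl-ACP desaturase that makes oleate, had 2511 and 18 tags, 143-fold lower (90.0 to 241). Its listed tag differed between the libraries. KAS III (Pp1s119_22V6.1), which starts the acyl chain, had 4665 and 245 tags. The acetyl-CoA carboxylase subunit CAC1 (Pp1s15_270V6.1), part of the enzyme that makes malonyl-CoA, had 427 and 28, and the mitochondrial acyl carrier protein mtACP2 (Pp1s158_84V6.1) had 382 and 132.

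Lipoxygenases, which oxidise polyunsaturated fatty acids to oxylipin precursors, differed among themselves. Lipoxygenase-6 (Pp1s171_146V6.1) fell 8.25-fold (8.03 to 8.48) from 47012 to 5819 tags and lipoxygenase-3 (Pp1s434_27V6.3) fell 2.06-fold from 6018 to 2987. The call of lipoxygenase-3 was lost under total gene tags, with a log2 ratio of -0.93. Lipoxygenase-2 (Pp1s419_10V6.1) rose 5.77-fold (5.42 to 6.14) from 1168 to 6880 tags, while lipoxygenase-7 had 468 and 250 and was within 2-fold. Lipoxygenase-6 was the more abundant gene at day 3 and lipoxygenase-2 at day 24, as tag levels that are not corrected for length.

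In carbon metabolism, a gene annotated to glyceraldehyde-3-phosphate dehydrogenase activity (Pp1s353_25V6.1), a glycolytic step, had 12175 tags at day 3 and 1164 at day 24, and its listed tag differed between the libraries. A transketolase (Pp1s120_127V6.1), which shuffles sugar phosphates, had 2731 and 432 tags. A gene annotated to glycogen debranching and starch metabolism (Pp1s44_268V6.1) had 12925 and 2018 tags, and the ATP synthase subunit gene Pp1s154_69V6.1 had 3562 and 670. In the other direction, the aldolase-type gene Pp1s102_189V6.2 of the photorespiration list had 421 and 2022 tags, 4.70-fold higher (4.23 to 5.23). Its listed tag also differed between the libraries.

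Of 14 tested photosystem subunit genes 7 were higher at day 24, 1 was lower and 6 were within 2-fold. In photosystem II, 4 of 8 genes were called, all higher. PSBR (Pp1s15_409V6.1), a subunit near the oxygen-evolving complex, had 1287 and 8737 tags, 6.65-fold higher (6.27 to 7.05). A PSBP-1 gene (Pp1s11_39V6.2) had 588 and 2081 tags, and PsbY genes had 191 and 780 (Pp1s455_8V6.1) and 556 and 1778 (Pp1s101_95V6.2). In photosystem I, 3 of 6 genes were higher. PsaH (Pp1s89_62V6.1) had 362 and 2509 tags, 6.78-fold higher (6.07 to 7.60), PSAL (Pp1s15_408V6.1) had 994 and 2491, and PSAE-2 (Pp1s101_2V6.1) had 1146 and 2816. The lower gene was 1 of a pair of PsaO genes. Pp1s248_60V6.1 had 8502 and 4217 tags, 2.06-fold lower (1.98 to 2.14), a call lost under total gene tags with a log2 ratio of -0.93, while its neighbour in the numbering, Pp1s248_61V6.2, had 536 and 914 and was within 2-fold. Because Pp1s248_60V6.1 was the most abundant of the 6, the summed level of photosystem I genes was 2084 CPM at day 3 and 2321 at day 24, while that of photosystem II genes was 1209 and 3664.

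Electron transfer and light harvesting followed the photosystems in part. The 3 tested plastocyanin genes, which carry electrons to photosystem I, were all higher, with 1200 and 8094 tags in Pp1s27_130V6.1, 255 and 2628 in Pp1s3_520V6.1 and 1317 and 3965 in Pp1s254_25V6.1. Of 5 light-harvesting genes only the LHCB4.2 homologue Pp1s155_36V6.1 was called, with 243 and 2151 tags, 8.67-fold higher (7.59 to 9.94). The other LHCB4.2 homologue, Pp1s155_34V6.1, had 4156 and 8367 tags and missed the 2-fold limit at 1.97, and LHCA1 (Pp1s158_109V6.1) had 967 and 904. Many of these genes stood higher at day 14 than at day 24. PsaO Pp1s248_60V6.1 stood at 1489, 7597 and 723 CPM at days 3, 14 and 24. At days 14 and 24, PSAE-2 stood at 1564 and 483 CPM, PSAL at 1106 and 427, LHCB4.2 Pp1s155_34V6.1 at 4829 and 1435 and LHCA1 at 555 and 155. PSBR, with 225, 1425 and 1498 CPM at days 3, 14 and 24, went the other way. So did LHCB4.2 Pp1s155_36V6.1, with 238 and 369 CPM at days 14 and 24 and 607 at day 30.

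Single transcripts of secreted and wall-acting proteins appeared among the strongest gains, while the wider classes had calls in both directions. The extracellular region list had 32 higher and 31 lower of 127 tested members (median log2 ratio 0.10). Its summed level was 19861 CPM at day 3 and 13455 at day 24. The lipid transport list had 6 higher and 8 lower of 27 (median 0.11). The single GO term cell wall had 8 higher and 17 lower of 39 (median -0.35). Lipid-transfer proteins are small secreted proteins that carry lipids to the cell surface, and all 3 listed were higher at day 24. Each had under 100 tags at day 3 and so passed the filter only at day 24. Of all genes that passed in this way, 75.3% were called higher and 0 lower, so the direction was largely set by the filter. Pp1s136_71V6.1 had no tags at day 3 and 4841 at day 24. Against the floor of 3 tags it was 1580-fold higher, the largest gain of the comparison. Pp1s139_88V6.1 had 31 and 3422 tags, 108-fold higher (76.0 to 159), and Pp1s126_84V6.2 had none and 162. Their course to day 30 differed: Pp1s136_71V6.1 reached 3204 CPM there and Pp1s139_88V6.1 was at 2.85.

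Xyloglucan endotransglucosylases (XTHs) cut and rejoin wall xyloglucan. XTH5 (Pp1s168_54V6.1) had 2 tags at day 3 and 265 at day 24, a ratio of 130 (35.6 to 1077). Its listed tag differed between the libraries. XTH9 (Pp1s156_85V6.1) had 87 and 1144, 12.9-fold higher (10.3 to 16.2). The remaining tested gene (Pp1s81_246V6.1) had 185 and 232 and was within 2-fold. Cellulose synthase 3 (Pp1s8_137V6.1) had 2 and 308 tags, a ratio of 151 (41.4 to 1250). The other 8 tested genes of that family are cellulose synthase-like, of which CSLD3 (Pp1s111_50V6.1) with 446 and 155 tags and the D7 member (Pp1s243_10V6.1) with 109 and 39 were lower and 6 were within 2-fold. Both listed genes of the peroxidase superfamily, Pp1s104_177V6.1 and Pp1s112_99V6.1, were unlisted at day 3 and had 249 and 107 tags at day 24. They too passed the filter only at day 24. Further gains carried only a GO annotation. Pp1s309_41V6.1, annotated to hydrolysis of glycosyl bonds outside the cell, had none and 591 tags, and Pp1s461_15V6.1, annotated to carboxylesterase activity and polysaccharide breakdown, had 12528 and 40432. Pp1s55_301V6.4, annotated as a water transporter, had 3 and 1090 tags, a ratio of 356 (121 to 1730), and its listed tag differed between the libraries.

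Hormone-related genes moved in both directions. The auxin transporter homologues ABCB19 (Pp1s252_67V6.1) and ABCB4 (Pp1s391_45V6.1, PpABCB13 in the deposited annotation) were lower, from 6926 to 1200 tags, 5.90-fold (5.54 to 6.27), and from 956 to 87, 11.2-fold (9.01 to 14.1). The ethylene receptor homologue ETR1 (Pp1s115_107V6.1) fell 2.24-fold from 333 to 152 tags and EIN3 (Pp1s11_337V6.1), a transcription factor of that pathway in Arabidopsis, fell 2.71-fold from 204 to 77. In cytokinin signalling, the response factor CRF2 (Pp1s7_481V6.1) had 166 and 16 tags, 10.6-fold lower (6.34 to 19.0). The response regulator ARR3 (Pp1s10_378V6.1), whose Arabidopsis homologue is induced by cytokinin, had 30 and 204, 6.66-fold higher (4.52 to 10.1). A homologue of the histidine kinase WOL (Pp1s113_161V6.2) had 326 and 308 tags and was within 2-fold. The listed tag of this WOL homologue differed between the libraries. CCD8 (Pp1s14_419V6.1), the carotenoid cleavage dioxygenase of strigolactone synthesis, had no tags at day 3 and 225 at day 24. Against the floor of 3 tags it was 73.4-fold higher.

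Of 8 tested genes named for gibberellin, 5 were lower and 2 higher, against 26.0% and 23.8% of all tested genes. The abundant gibberellin 3-oxidase-like gene (Pp1s277_78V6.2) fell 5.34-fold (5.13 to 5.57) from 14416 to 2757 tags, and a GA2 oxidase-like gene (Pp1s54_1V6.1) had 126 and 11. A GID1-like receptor gene (Pp1s37_32V6.2) rose 6.43-fold (4.31 to 9.95) from 28 to 184 tags, and another, GLP5 (Pp1s540_9V6.1), fell 3.63-fold from 412 to 116. GID1-like genes thus stood on both sides.

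Among transcription factors, both tested class III HD-Zip genes and the 1 tested of 2 listed KANADI genes were higher at day 24. Each had under 100 tags at day 3 and so passed the filter only at day 24. Of all genes that passed in this way, 75.3% were called higher and 0 lower, so the direction was largely set by the filter. The list of organ, meristem and leaf development had 19 higher and 20 lower. Class III HD-Zip factors set organ polarity and vasculature in flowering plants, and both tested of 4 listed were higher: HB-8 (Pp1s188_95V6.1, HB14 in the deposited annotation) with 16 and 335 tags, 20.5-fold (12.4 to 36.3), and HB13 (Pp1s67_107V6.1) with 43 and 269, 6.12-fold (4.43 to 8.66). KANADI 3 (Pp1s114_151V6.1), of a family that acts against class III HD-Zip factors in Arabidopsis leaves, had 55 and 550 tags, 9.79-fold higher (7.41 to 13.2). GATA19 (Pp1s121_36V6.1) had 112 and 366 tags, and the light-signalling bZIP factor HY5 (Pp1s80_72V6.1) had 39 and 162.

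MADS-domain genes split by member. SHP1 (Pp1s267_56V6.1, PpMADS1 in the deposited annotation) had 72 and 294 tags, PPM3 (Pp1s34_373V6.1) had 268 and 869, and 1 of 2 models of the PPM1 locus (Pp1s118_209V6.2) had 114 and 393, all higher, while the other model had 164 and 304 and was within 2-fold. The type I gene PPTIM7 (Pp1s37_353V6.1) had 189 tags at day 3 and none at day 24, 64.4-fold lower against the floor of 3 tags. PPM7 (Pp1s313_41V6.1) had 105 and 4. WRKY factors, known from stress and defence responses, had 3 lower and 0 higher of 7 tested, against 26.0% and 23.8% of all tested genes, with 351 and 55 tags in WRKY42 (Pp1s158_166V6.1). The MYB genes Pp1s66_90V6.1 and Pp1s2_312V6.1 were lower with 989 and 121 and with 146 and 6 tags, and the bZIP factor BZO2H3 (Pp1s213_13V6.2) was lower with 8591 and 1584.

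Of 5 tested photoreceptor genes 3 were higher and 1 lower. Phototropins are blue-light receptors, and PHOTA2 (Pp1s179_27V6.1) had 85 and 525 tags, 6.05-fold higher (4.80 to 7.70), and PHOTB1 (Pp1s84_194V6.1) had 118 and 356. Phytochromes sense red light: phytochrome 5b3 (Pp1s91_116V6.1) had 828 and 3379 tags, 3.99-fold higher (3.70 to 4.32), and phytochrome 1 (Pp1s233_24V6.1) had 102 and 48, 2.17-fold lower. Cryptochrome 1a had 453 and 456. The kinase MPK12 (Pp1s20_265V6.1) was unlisted at day 3 and had 111 tags at day 24, VIK (Pp1s136_112V6.1) had 139 and 687, SK13 (Pp1s52_55V6.1) had 79 and 263 and BAM2 (Pp1s59_314V6.1) had 31 and 113. OST1 (Pp1s116_98V6.1), a kinase of abscisic acid signalling, had 809 and 3132, 3.79-fold higher (3.51 to 4.10). Of 10 histidine kinase and response regulator genes 5 were higher and 3 lower, against 23.8% and 26.0% of all tested genes.

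Among transporters, named families differed. Of 53 tested ABC transporter genes 18 were lower and 7 higher, against 26.0% and 23.8% of all tested genes, with 336 and 8 tags in PpABCG18 (Pp1s36_257V6.1) at one end and 138 and 1415 in PpABCI11 (Pp1s38_72V6.1) at the other. Mechanosensitive channels open under membrane tension, and 3 of 6 tested were lower and 2 higher. MSCL3 (Pp1s206_53V6.1) had 306 and 5 tags, 62.5-fold lower (26.5 to 194), whereas Pp1s161_60V6.1 had 3 and 123.

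Single genes of chromatin and cell division were called in both directions. Of 11 core histone genes 3 were higher and 4 lower, with H2B genes on both sides: Pp1s37_236V6.1 with 732 and 233 tags and Pp1s56_226V6.1 with 52 and 205. POK2 (Pp1s15_488V6.1), a kinesin that positions the division plane in Arabidopsis, had 338 and 1437 tags, 4.16-fold higher (3.69 to 4.70), and CDC48 (Pp1s296_11V6.2), an ATPase of protein turnover, had 7717 and 2414. The chromatin remodelling gene CHR4 (Pp1s223_99V6.1) had 137 and 8 tags, 17.5-fold lower (8.63 to 41.3). Its listed tag differed between the libraries.

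Of 44 genes that the study names by identifier, 32 passed the filter, and 10 of these were higher, 16 lower and 6 within 2-fold. Since they were chosen on these samples, their directions are not independent evidence. The reference gene of the study's qRT-PCR (Pp1s40_169V6.1) had 3959 and 3825 tags, a level within 1.06-fold (1.01 to 1.11). Among abundant genes the closest levels were those of Pp1s86_25V6.1 with 8731 and 8928 tags and Pp1s31_150V6.2 with 7828 and 7968, neither of which had a named product. In all, 574 tested genes (7.12%) lay within 1.1-fold.

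The files give 1 tag for each gene model and library. It was the same in both libraries for 6494 tested genes, of which 49.7% were called, and differed for 1488, of which 47.3% were called. For genes named above, the absence of a mark does not mean that the tag was the same. The 4 most abundant genes with differing tags are shown as day 3 and day 24 tags. Each was read from a site nearer to the 3' end at day 24, and each was within 2-fold.
Pp1s38_196V6.1, day 3: CATGatgaagaggtccatccg
Pp1s38_196V6.1, day 24: CATGggattcagtctttttga
Pp1s42_251V6.2, day 3: CATGctggttaatccacaaaa
Pp1s42_251V6.2, day 24: CATGgaattcctctttggaat
Pp1s58_224V6.1, day 3: CATGagaaaagagacgcggag
Pp1s58_224V6.1, day 24: CATGaacttattctgtatttt
Pp1s7_333V6.1, day 3: CATGttcgacttcaagggcaa
Pp1s7_333V6.1, day 24: CATGgatgggtgcttgtgttg

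For Pp1s38_196V6.1 the fifth site was listed at day 3 with 52372 tags and the fourth at day 24 with 38967, and for Pp1s7_333V6.1 the second with 19098 and the first with 13584. Over all listed gene models the site nearest to the 3' end was the listed one in 63.1% at day 3 and 66.5% at day 24.

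Several gene models of 1 locus were tested in 81 loci of 7976. In 4 loci a model was higher and another lower. At Pp1s13_120, of the SERF family, V6.1 fell 3.58-fold (2.72 to 4.77) from 235 to 67 tags and V6.3 rose 4.28-fold (2.90 to 6.50) from 32 to 140. Each model kept its own tag in both libraries, so the tags of the 2 models are printed.
Pp1s13_120V6.1: CATGatcagcattctggtgcc
Pp1s13_120V6.3: CATGcaagtctggagatcaag

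At Pp1s69_133, V6.1 had 361 and 20 tags and V6.5 had 417 and 1600, the latter read from different sites in the 2 libraries. The other 2 loci were Pp1s42_19 and Pp1s356_43. Summed over the locus, the log2 ratio was -0.40 at Pp1s13_120 and 1.02 at Pp1s69_133.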

How the data were processed

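Tag counts and TPM per gene model were deposited by the authors, who removed adaptor, ambiguous and single-copy tags, assigned each 21-nt tag to a Phytozome gene model, allowing 1 mismatch, and dropped tags with several matching genes, so that near-identical copies can be undercounted. TPM are the deposited counts divided by library size. The matching tool is blastn in the study and Bowtie in the submitters' processing notes, and the sources used here give no version. The authors' site number from the 3' end of each tag, which is neither a count nor a score, was read as deposited.

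Genes absent from a library were set to 0, and folds against 0 were taken at a floor of 3 tags. The 6 libraries were scaled by TMM (edgeR 4.0.16), and the tags of both were tested by the exact binomial distribution, two-sided (scipy 1.17.1), with Benjamini-Hochberg adjustment over 8058 genes. With 1 library per side, a quasi-likelihood fit in edgeR was not possible. Intervals are exact binomial for ratios and exact Poisson for levels at 95%. The test was tried on simulated data. Alternatives were other scalings (including DESeq2 1.42.0), filters, thresholds, assumed variation, locus sums and genes with 1 tag. PCR copies are not independent molecules.

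Named genes were the 15 highest and 15 lowest calls, the 2 most abundant calls per list and direction, the genes the study names, the 10 most abundant per library, loci with opposite calls, the 4 most abundant with differing tags and the 5 most abundant within 1.1-fold, with terms by median. Members, lists and families were chosen with earlier results of these data known, and genes named only through a family were chosen after their values were seen. Names came from the deposited annotation and, for part of the genes, the study's list of differentially expressed genes. No identifier matched the RefSeq table of a later assembly, so no coordinates are given.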

Additional observations from a re-analysis of the deposited data

How the results depend on the processing

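With 1 library per side no result has a replicate check, and the spread between plants was not measured. The count of 4010 called genes was within 1.5 times under total gene tags, DESeq2 size factors, deposited TPM, TMM over genes with over 100 tags (chosen after seeing the data), over 100 tags in the 2 libraries together, the fold threshold alone, locus sums and the same listed tag (3306 to 4458). It became 6487 (3112 higher, 3375 lower) with no filter, 1782 (832, 950) with over 100 tags in each library, 1530 (665, 865) over 4-fold, 2140 (957, 1183) at an assumed coefficient of variation of 0.2 and 286 (120, 166) at 0.4. Higher calls made up 44.7% to 52.4% of all calls over the scalings. Total gene tags moved the median of all tested genes from 0.00084 to 0.11 on the log2 scale. A scaling adds the same amount to every log2 ratio, so each list median moved by that amount, at most 0.11. Of 174 combinations of list and setting, 173 left the median within its order-statistic interval. The combinations that only changed the scaling are such constant shifts and do not check the lists separately. Chromatin and histone had a median of 0.11 with over 10 tags in at least 1 library, against -0.49, as 91 in place of 47 members were tested. Of 300 genes that met the rules for naming, not all of which are named here, 11, 5, 7 and 3 lost their call under total gene tags, DESeq2 size factors, TPM and locus sums. For 4 gene models the sign changed when tags were summed over the locus, with log2 ratios of -0.40 (Pp1s13_120V6.3), 0.16 (Pp1s356_43V6.2), -0.082 (Pp1s42_19V6.2) and 1.02 (Pp1s69_133V6.1). The number of GO terms with a median above 0 ran from 49 to 76 over the scalings, an alternative chosen after seeing the data. No paired analysis was possible because each group holds 1 library. Counts below the floor of 3 tags limit the folds of genes listed in 1 library only.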
